A study of Mus musculus with 26 samples.

Results

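The genes described are Mt1, Mt2, Hmox1, Nqo1, Gclm, Gclc, Slc7a11, Txnrd1 and Srxn1, chosen by name for their roles in metal binding and in the defence against oxidants. They are 9 of the 19051 genes that the platform annotation names with 1 symbol, and every probe annotated to them was taken, 16 of 45260 probes. RNA of HCmel3 melanomas grown in C57BL6 mice from 26 samples was read on Illumina MouseWG-6 v2.0 arrays with 1 sample to an array. The 8 EDT tumours (early during treatment) were excised between day 12 and day 20 after adoptive T cell transfer began, and the 8 NT tumours received no treatment. In a second table, 5 relapse tumours had grown back after the transfer and 5 ctrl tumours were its untreated controls. The transfer joined 1 dose of cyclophosphamide, intravenous CD8+ pmel-1 T cells with a transgenic receptor for the melanocyte antigen gp100, an adenovirus vaccine carrying gp100, and CpG with polyI:C. The effects of these components cannot be told apart here, because every treated tumour had all of them. The excised tumours were stored in liquid nitrogen, and the arrays used biotinylated RNA made from 100 ng of total RNA. Titles in the second table carry a note of a repeated analysis, the nature of which is not given in the sources used here. The labels do not state whether each tumour is from its own mouse, so a p-value here weighs a difference against a spread that could be technical in part.

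Metallothioneins are small cysteine-rich proteins that bind zinc, copper and cadmium and also scavenge oxidants. Their genes are switched on by the zinc sensor MTF1 through metal response elements. The other genes are known targets of NRF2 (gene Nfe2l2), a transcription factor that KEAP1 keeps low until electrophiles or oxidants arrive and that then binds antioxidant response elements, from which BACH1 can displace it. Slc7a11 also answers to ATF4, the transcription factor of amino acid shortage. In melanoma and in the phagocytes that enter tumours, these genes are studied for cystine supply, glutathione, haem breakdown and resistance to oxidants.

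The arrays detected between 15008 and 16830 probes in EDT tumours and between 14064 and 16312 in NT tumours (detection p under 0.01), against 15992 to 18323 in relapse and 14545 to 17033 in ctrl tumours. Replicates correlated across tested genes with r of 0.893 to 0.981 in EDT, 0.932 to 0.983 in NT, 0.853 to 0.970 in relapse and 0.939 to 0.967 in ctrl. Of 11 melanocyte markers, 10 were detected on every EDT array, 11 on every NT array, 7 on every relapse array and 11 on every ctrl array. At relapse all 11 were called lower than in ctrl and 1 was detected on no array. The summed melanocyte marker signal, on the linear scale, was 81608 to 167803 in EDT and 149765 to 180194 in NT, against 15265 to 116112 in relapse and 176623 to 190474 in ctrl. The summed signal of 15 macrophage and monocyte markers was 34517 to 71294 in EDT and 8409 to 22849 in NT, against 23753 to 86063 in relapse and 5530 to 15827 in ctrl. The sum of 7 neutrophil markers was 679 to 28312 in EDT, 239 to 5346 in NT, 745 to 28918 in relapse and 744 to 1072 in ctrl. The sum of 8 T cell markers was 3222 to 25150 in EDT and 1550 to 2678 in NT, against 2153 to 7714 in relapse and 1608 to 3060 in ctrl. In EDT and at relapse, 13 and 13 of the 15 macrophage markers, 5 and 3 of the 7 neutrophil markers and 8 and 5 of the 8 T cell markers were called higher. Of all genes tested, 14.5% and 13.3% were called higher. No NT and no ctrl array detected 5 and 6 of the T cell markers, 1 and 2 of the neutrophil markers and 1 and 1 of the macrophage markers. A marker that passed the detection filter through treated tumours alone was bound to differ, so these counts are a description. The part of these cells in the results below was not tested. Arrays lay on 7 slides: EDT on slides 2, 3 and 5, NT on slides 1, 4 and 5, and relapse and ctrl together on slides 6 and 7. Values below are log2 signals after background correction and quantile normalization within each table, so levels are compared within a table only. In a piece of tumour, fewer cells of a type and less RNA per cell cannot be told apart.

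All 9 genes passed the detection filter through at least 1 probe, 12 of the 16 probes in all, and the brightest passing probe stands for its gene. Mt1, Mt2, Hmox1 and Gclm were detected on all 26 arrays, and so were both brighter probes of Srxn1. Nqo1 and Slc7a11 passed through the EDT tumours alone: Nqo1 was detected on 8 of 8 EDT, 2 of 8 NT, 4 of 5 relapse and 3 of 5 ctrl arrays, and Slc7a11 on 8, 1, 3 and 0. Gclc passed through relapse alone, detected on 1 of 8 EDT, 2 of 8 NT, 5 of 5 relapse and 4 of 5 ctrl arrays. A probe that enters through the group where it is bright was bound to differ, so counts over the genes are given as a description only. The calls of Nqo1 and of the brightest Slc7a11 probe, which entered in this way, are also given without the filter. Gclc entered through relapse, where its mean was lower than in ctrl. Of 16 probes, 4 stayed below the filter: 1 of Nqo1 (ILMN_2766386), detected on 0 arrays, and 3 of Slc7a11 (ILMN_2568074, ILMN_2463432 and ILMN_2574165), detected on 0, 2 and 0 arrays.

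In EDT tumours Slc7a11 and Nqo1 were called higher than in NT tumours and no member was called lower, 2 of 9 (22.2%) at a limma adjusted p under 0.05, both of them genes that passed the filter through EDT. Of all 9553 genes tested, 29.6% were called in that comparison, 14.5% higher and 15.1% lower, so the members' share lay near the background. The median log2 change of the 9 genes was 0.01, against -0.05 for all genes. In relapse tumours Gclc alone was called, lower than in ctrl, which is 1 of 9 genes (11.1%) where 30.8% of all genes were called, 13.3% higher and 17.5% lower. The median log2 change was 0.05, against -0.07 for all genes. Whether the EDT change differed from the relapse change was fitted over all 26 arrays with limma, and this called 0 of 9 genes, where 16.6% of all genes were called, 9.76% with a higher and 6.80% with a lower EDT effect. At an unadjusted limma p under 0.05 it was 0 of 9 genes, against 31.7% of all genes.

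**Figure D1:**
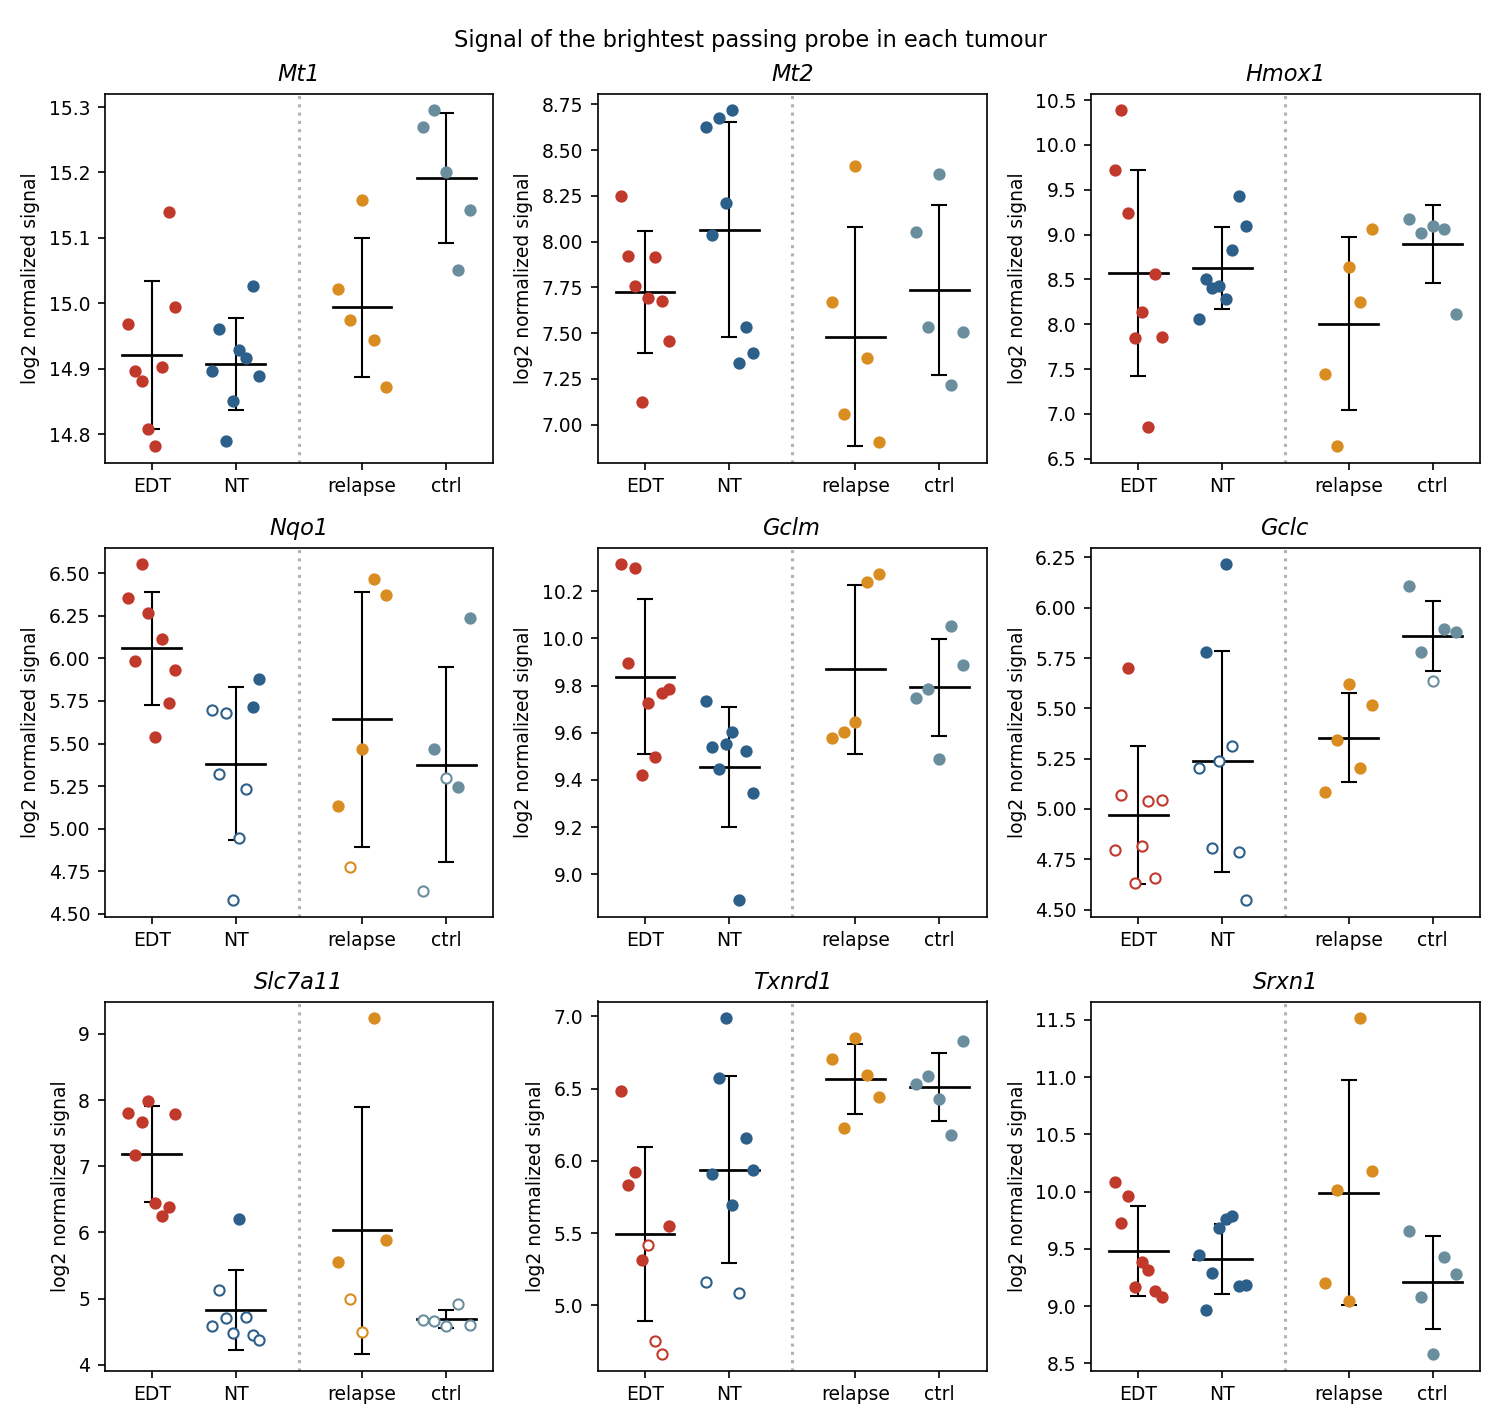
Normalized log2 signal of the representative probe of each of the 9 genes (vertical axis) in every sample, in the groups EDT, NT, relapse and ctrl (horizontal axis). Each point is 1 tumour, filled where the probe was detected (detection p under 0.01) and open where it was not, and the bar is the mean with its SD. All 8 EDT points of Slc7a11 lie above all 8 NT points, and Mt1 lies in a band between 14.78 and 15.30 throughout.

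Mt1 gave a very bright signal and showed no called change. Its probe (ILMN_2596522) read between 14.78 and 15.14 in EDT tumours (median 14.90), against 14.79 to 15.03 in NT tumours (median 14.91). The EDT and NT ranges overlapped almost wholly. The log2 difference was 0.01 ± 0.08 (SE), with a 95% interval of -0.16 to 0.19 and a limma adjusted p of 0.916. Mt1 read 15.02, 14.97, 15.16, 14.94 and 14.87 in relapse tumours 1 to 5, against 15.27, 15.30, 15.20, 15.05 and 15.14 in ctrl tumours 1 to 5. Relapse tumours 1, 2, 4 and 5 lay below every ctrl tumour, and relapse 3 lay inside the ctrl range. The difference was -0.20 ± 0.15 (SE; 95% interval -0.53 to 0.14) and was not called (limma adjusted p = 0.346). Raw signals of this probe ran from 15103 to 43815, where the brightest bead signal on any array was 50198, so the probe sat near the top of the measured range. Quantile normalization gives the brightest probes of all arrays like values, so a change in Mt1 may be understated and how steady its level was cannot be read here.

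Mt2 too showed no called change. Its normalized values spread more than those of Mt1, but given the limit on Mt1 the 2 spreads cannot be compared. Raw signals of Mt2 ran from 184 to 563. Its probe (ILMN_1219154) read 7.13 to 8.25 in EDT tumours (median 7.72), against 7.34 to 8.72 in NT tumours (median 8.12). The ranges overlapped, and NT tumours differed by slide: 5 on slides 1 and 4 read 8.04 to 8.72 and 3 on slide 5 read 7.34 to 7.53. The log2 difference was -0.34 ± 0.22 (SE; 95% interval -0.81 to 0.13; limma adjusted p = 0.264), and within slide 5, the one slide with both groups, it turned to 0.14 (limma adjusted p = 0.792). At relapse Mt2 read 7.67, 7.06, 8.41, 7.36 and 6.90, against 8.05, 7.53, 8.37, 7.22 and 7.50 in ctrl. Tumour 3 was highest in each group, and the groups overlapped. The difference was -0.25 ± 0.31 (SE; limma adjusted p = 0.565). Across the 26 tumours the deviations of Mt1 and Mt2 from their group means correlated with r of 0.25, a description over points that share tables and slides.

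The metallothionein promoters are shown because both genes are controlled through metal response elements. Mt2 (chr8:94172618-94173567) and Mt1 (chr8:94178883-94180327) lie on the plus strand of chromosome 8, 5316 bases apart, in RefSeq's GRCm38.p6 annotation. The core of the element was searched as TGCACNC or TGCGCNC on both strands, in windows of 250 bases before and 50 after each gene's start. Cores are in capitals in the 2 sequences, chr8:94178839-94179138 for Mt1 and chr8:94172368-94172667 for Mt2, both plus strand, 5′ to 3′, from RefSeq. The start that the table uses for Mt1 lies inside the gene's annotated span.
Mt1: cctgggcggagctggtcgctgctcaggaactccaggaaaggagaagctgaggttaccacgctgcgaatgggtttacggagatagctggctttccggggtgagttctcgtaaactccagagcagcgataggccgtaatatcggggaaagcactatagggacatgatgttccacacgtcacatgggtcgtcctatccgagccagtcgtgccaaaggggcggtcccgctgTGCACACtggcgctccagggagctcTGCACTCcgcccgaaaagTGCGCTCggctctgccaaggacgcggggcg
Mt2: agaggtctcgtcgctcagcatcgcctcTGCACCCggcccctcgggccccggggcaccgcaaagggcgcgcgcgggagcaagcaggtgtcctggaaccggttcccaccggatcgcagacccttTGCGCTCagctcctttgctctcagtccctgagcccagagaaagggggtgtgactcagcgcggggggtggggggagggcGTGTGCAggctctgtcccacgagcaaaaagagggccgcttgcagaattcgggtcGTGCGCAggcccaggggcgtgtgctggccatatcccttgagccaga
The Mt1 window held 3 cores, which begin 23 bases before the start and at bases 3 and 21 after it. These positions count from the start used here, not from the first base of the annotated gene. The Mt2 window held 4 cores, beginning at -223, -128, -50 and 5, the last 2 on the other strand. One or more cores of this kind were found in 25.7% of 32851 mouse promoters of the same length, so a match alone is a description. The share with 3 or 4 cores was not counted. The Mt2 window also held 1 core of the antioxidant response element, TGACNNNGC, at -79, a motif found in 12.4% of promoters. Mtf1 itself, the zinc sensor, differed by -0.33 ± 0.19 between EDT and NT (SE; limma adjusted p = 0.215) and by -0.18 ± 0.31 between relapse and ctrl (limma adjusted p = 0.680), and was called in neither.

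Hmox1, the enzyme that opens haem to biliverdin, iron and carbon monoxide, had nearly the same mean in EDT and NT tumours but a much wider spread in EDT. Its probe (ILMN_2788073; gene at chr8:75093618-75100593) read 6.85 to 10.39 in EDT tumours (median 8.35), with a mean of 8.57 ± 1.15 (SD, n = 8), against 8.06 to 9.43 in NT tumours (median 8.47) and a mean of 8.63 ± 0.46 (SD, n = 8). EDT tumours lay on both sides of the NT range: 2 of 8 above all NT tumours and 3 of 8 below. The spread followed the slide, with the 3 EDT tumours of slide 2 at 9.24 to 10.39, the 3 of slide 3 at 6.85 to 8.13 and the 2 of slide 5 at 7.86 to 8.56. The log2 difference was -0.05 ± 0.40 (SE; 95% interval -0.88 to 0.78; limma adjusted p = 0.934). Within slide 5 it was -0.91 (limma adjusted p = 0.182), where EDT stood below all 3 NT tumours of that slide (8.82 to 9.43). Slide and tumour cannot be told apart for slides 2 and 3, which hold EDT samples only.

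At relapse Hmox1 read 7.44, 6.64, 8.63, 8.25 and 9.06, against 9.18, 9.02, 9.09, 9.06 and 8.12 in ctrl tumours. Relapse 1 and 2 were lower than every ctrl tumour, and ctrl 5 stood below its own group. The difference of -0.89 ± 0.42 (SE; 95% interval -1.80 to 0.02) was not called (limma adjusted p = 0.123), and it was -1.52 within slide 6 and 0.07 within slide 7. The macrophage marker sums were 42044 to 65017 in the 3 EDT tumours of slide 2 and 34517 to 71294 in the 3 of slide 3.

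**Figure D2:**
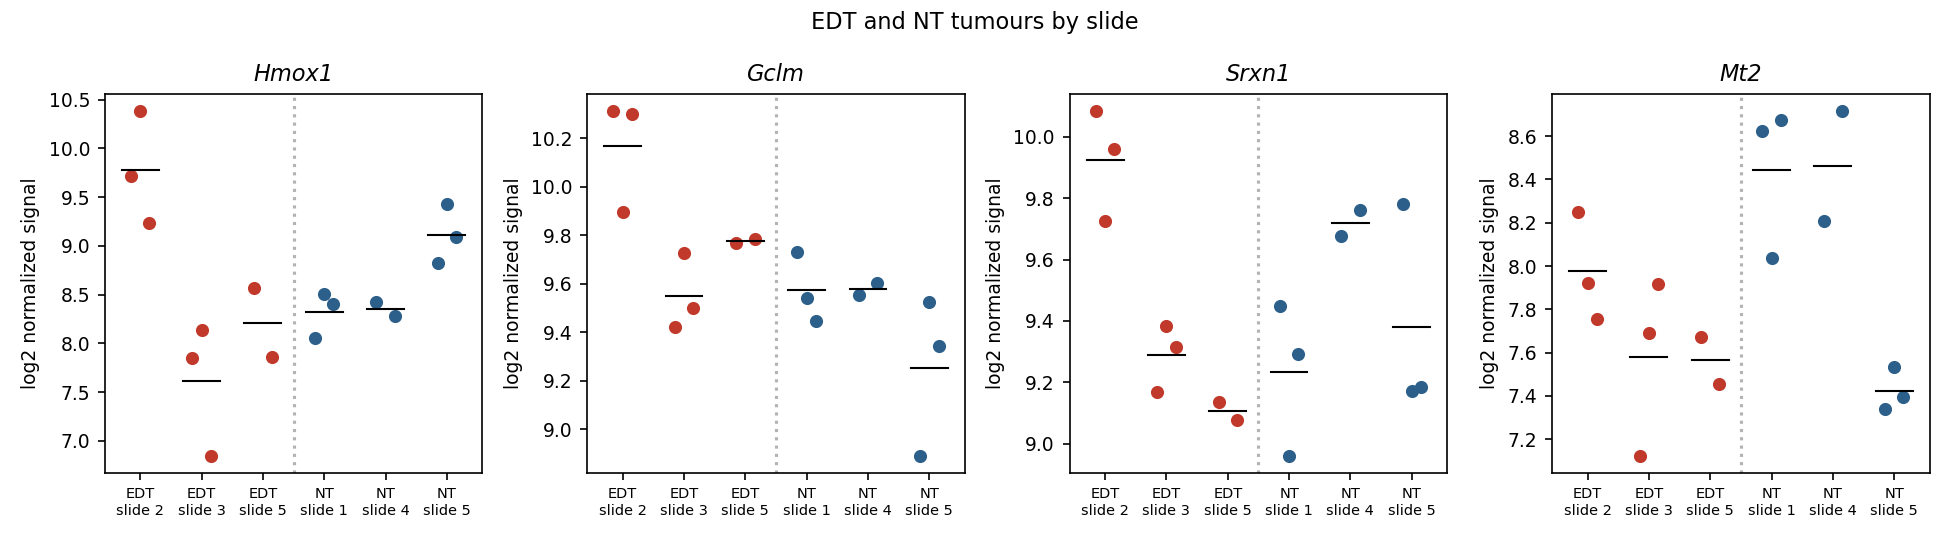
Normalized log2 signal of Hmox1, Gclm, Srxn1 and Mt2 (vertical axis) by slide, EDT on slides 2, 3 and 5 and then NT on slides 1, 4 and 5 (horizontal axis). Points are tumours and lines are slide means. The EDT tumours of slide 2 lie above those of slide 3 for Hmox1, Gclm and Srxn1, and the NT tumours of slide 5 lie below those of slides 1 and 4 for Mt2.

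Nqo1, a quinone reductase often read as the marker of NRF2 activity, was called higher in EDT tumours. Its passing probe (ILMN_2726371; gene at chr8:107388225-107403205) read 5.54 to 6.55 in EDT tumours (median 6.05), against 4.58 to 5.88 in NT tumours (median 5.50). All 8 EDT tumours lay above the NT mean and 6 of 8 above every NT tumour, so the ranges overlapped at their edges. The difference was 0.68 ± 0.19 (SE; 95% interval 0.28 to 1.08), with a limma adjusted p of 0.0123 (0.0226 without the detection filter). The call ended within slide 5, where the difference was 0.23 (limma adjusted p = 0.714), and without the 3 EDT tumours of slide 2, where it was 0.54 (limma adjusted p = 0.0938). Because 6 of 8 NT arrays did not detect the probe, the NT values are close to background and no fold is given. Nqo1 read 5.13, 4.78, 5.47, 6.46 and 6.37 in relapse tumours, against 4.64, 5.47, 5.30, 5.24 and 6.24 in ctrl tumours. The groups overlapped, with relapse 4 and 5 the highest, and the difference was 0.27 ± 0.38 (SE; limma adjusted p = 0.615).

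Gclm and Gclc encode the modifier and catalytic subunits of glutamate-cysteine ligase, the first and limiting step of glutathione synthesis. Gclm (ILMN_1256354; gene at chr3:122245487-122267215) read 9.42 to 10.31 in EDT tumours (median 9.78), against 8.89 to 9.73 in NT tumours (median 9.53). Of the EDT tumours 7 of 8 lay above the NT mean and 5 of 8 above every NT tumour, and EDT 1 and 3 on slide 2 were highest. The difference was 0.38 ± 0.15 (SE; 95% interval 0.07 to 0.70) and just missed the threshold (limma adjusted p = 0.0613). It was called under 5 of 13 alternatives, among them median centring (0.76, adjusted p = 0.00550) and the authors' values (0.51, adjusted p = 0.0151), and it was 0.18 without the EDT tumours of slide 2 (limma adjusted p = 0.395). Gclm read 9.58, 9.60, 9.64, 10.24 and 10.27 in relapse, against 9.75, 9.79, 9.49, 10.05 and 9.89 in ctrl. Relapse 4 and 5 were the highest of the 10, the other 3 lay within the ctrl range, and the difference was 0.08 ± 0.21 (SE; limma adjusted p = 0.808).

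Gclc (ILMN_2608016; gene at chr9:77754535-77794489) was the one member called at relapse, where it was lower. It read 5.08, 5.34, 5.62, 5.21 and 5.52 in relapse tumours 1 to 5, against 6.11, 5.78, 5.64, 5.89 and 5.88 in ctrl tumours 1 to 5. No relapse tumour reached a ctrl tumour, though relapse 3 and ctrl 3 almost met. Such separation in this direction was seen for 10.7% of all genes tested. The difference was -0.51 ± 0.18 (SE; 95% interval -0.89 to -0.12), with a limma adjusted p of 0.0484. The probe was detected on 5 of 5 relapse and 4 of 5 ctrl arrays, but its values lie close to background and no fold is given. The call held in 1 of 10 leave-one-out fits, the one without relapse 3, with values between -0.57 and -0.44. It also ended within slide 6 (-0.49, adjusted p = 0.297) and slide 7 (-0.53, adjusted p = 0.216), and when every array was centred on its median (-0.10, adjusted p = 0.744). In EDT tumours Gclc read 4.63 to 5.70 (median 4.93), against 4.55 to 6.22 in NT (median 5.22), levels that few arrays told from background. The difference was -0.27 ± 0.22 (SE; limma adjusted p = 0.374).

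Slc7a11, the light chain of the antiporter xCT that takes in cystine for glutathione, showed the largest change of the 9 genes. Its brightest probe (ILMN_2948143; gene at chr3:50364936-50499087) read 7.80, 7.17, 7.67, 7.99, 6.44, 6.24, 6.38 and 7.79 in EDT tumours 1 to 8, against 4.58, 5.13, 4.71, 4.47, 6.20, 4.73, 4.45 and 4.38 in NT tumours 1 to 8. Every EDT tumour lay above every NT tumour, with NT 5 (6.20) just below EDT 6 (6.24) and the other NT tumours far lower. Such separation in this direction was seen for 4.58% of all genes tested. The difference was 2.35 ± 0.31 (SE; 95% interval 1.71 to 3.0), with a limma adjusted p of 2.01e-05 (9.47e-05 without the detection filter). Since 1 of 8 NT arrays detected the probe, the difference rests on NT values close to background and no fold is given. Within slide 5 the difference was 2.57 (limma adjusted p = 0.0188), and it was 2.14 without the EDT tumours of slide 2 (limma adjusted p = 0.000754). Without background correction it was 1.08 (limma adjusted p = 0.000121). EDT tumours 1, 2, 3, 4 and 8, which read 7.17 to 7.99, had neutrophil marker sums of 6337 to 28312 and T cell marker sums of 6655 to 25150. EDT tumours 5, 6 and 7, which read 6.24 to 6.44, had neutrophil sums of 679 to 1600 and T cell sums of 3222 to 5074. Melanocyte marker sums were 81608 to 132280 in EDT 1, 2, 3, 4 and 8 and 161318 to 167803 in EDT 5, 6 and 7. Macrophage marker sums overlapped, at 42044 to 71294 and 34517 to 48664, and so did fibroblast marker sums, with 2469 in EDT 1 and 5819 in EDT 5. NT 4 read 4.47 with a neutrophil sum of 5346, and NT 5 read 6.20 with a neutrophil sum of 862. The EDT tumours are parted here by their Slc7a11 readings after these were seen, so the sums are a description. The part of any of these cell types in the Slc7a11 signal was not tested.

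A second Slc7a11 probe (ILMN_2740738), which also passed through EDT alone, was likewise called higher in EDT tumours. It read 7.83, 6.78, 6.84, 6.12, 4.74, 5.19, 5.0 and 5.63 in EDT tumours 1 to 8, against 4.49 to 5.12 in NT tumours (median 4.60). EDT 5 and 7 fell within the NT range and the other 6 lay above it, the 3 of slide 2 highest. Over all passing probes, 27% of which were called and 12.5% higher, the difference was 1.34 ± 0.35 (SE; limma adjusted p = 0.00850). With 5 EDT arrays and 0 NT arrays that detected it, EDT was at least 1.32-fold higher, and at least 1.10-fold without EDT 1. Within slide 5 it was 0.82 and no longer called (limma adjusted p = 0.184), and without the EDT tumours of slide 2 it was 0.66 (limma adjusted p = 0.0373), with an EDT mean below the lowest detected signal, so that no fold can be bounded.

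At relapse Slc7a11 was high in 1 tumour. The brightest probe read 5.56, 4.99, 4.50, 9.23 and 5.88 in relapse tumours, against 4.68, 4.66, 4.58, 4.92 and 4.60 in ctrl tumours. Relapse 4 stood far above all others, relapse 1, 2 and 5 above every ctrl tumour, and relapse 3 below all of them. The difference was 1.34 ± 0.70 (SE; 95% interval -0.19 to 2.88) and was not called (limma adjusted p = 0.163). Without relapse 4 it was 0.54 (limma adjusted p = 0.172). The probe was detected on 3 relapse arrays and 0 ctrl arrays, and without relapse 4 the relapse mean lay below the lowest detected signal, so no fold is given. The second probe read 4.90, 5.08, 5.92, 7.22 and 6.22 in relapse, against 5.73, 5.09, 5.61, 5.47 and 5.67 in ctrl, again with relapse 4 highest and with relapse 1 and 2 below every ctrl tumour. Its difference was 0.36 ± 0.38 (SE; limma adjusted p = 0.503).

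The EDT change of Slc7a11 exceeded the relapse change by 1.01 (95% interval -0.47 to 2.49), which was not called (limma adjusted p = 0.351). Without relapse 4 that difference was 1.81 and called (limma adjusted p = 0.0160). Slc3a2, the heavy chain that carries SLC7A11 to the cell surface, went the other way in EDT tumours. It read 6.75, 5.86, 5.97, 5.84, 6.86, 6.69, 6.73 and 6.14 in EDT tumours, against 7.52, 7.64, 7.94, 7.66, 8.11, 7.22, 7.43 and 7.46 in NT tumours. All EDT tumours lay below all NT tumours, a separation seen for 1.49% of genes in this direction. The difference was -1.27 ± 0.18 (SE; limma adjusted p = 5.92e-05), and within slide 5 it was -0.93 (limma adjusted p = 0.123). At relapse it differed by -0.80 ± 0.30 and was not called (limma adjusted p = 0.0598).

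The Slc7a11 promoter is shown for its ATF4 elements, the CCAAT-ATF response element with the core TGATGNAA, which is printed in capitals. The window is chr3:50443564-50443863, minus strand, 5′ to 3′, from RefSeq in GRCm38.p6, and the start used by that table lies inside the gene's annotated span.
Slc7a11: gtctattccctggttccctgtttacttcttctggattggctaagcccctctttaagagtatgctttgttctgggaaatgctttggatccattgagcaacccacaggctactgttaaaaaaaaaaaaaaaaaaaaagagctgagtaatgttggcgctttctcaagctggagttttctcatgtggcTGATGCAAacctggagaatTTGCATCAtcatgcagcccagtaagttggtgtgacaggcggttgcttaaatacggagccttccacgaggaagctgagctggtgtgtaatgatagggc
It held 2 cores, TGATGCAA at -66 to -59 and TTGCATCA, the same letters read on the other strand, at -47 to -40. One or more such cores were found in 3.97% of promoters. No antioxidant response element core was found in this window, and that says only that these letters are not in it.

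**Figure D3:**
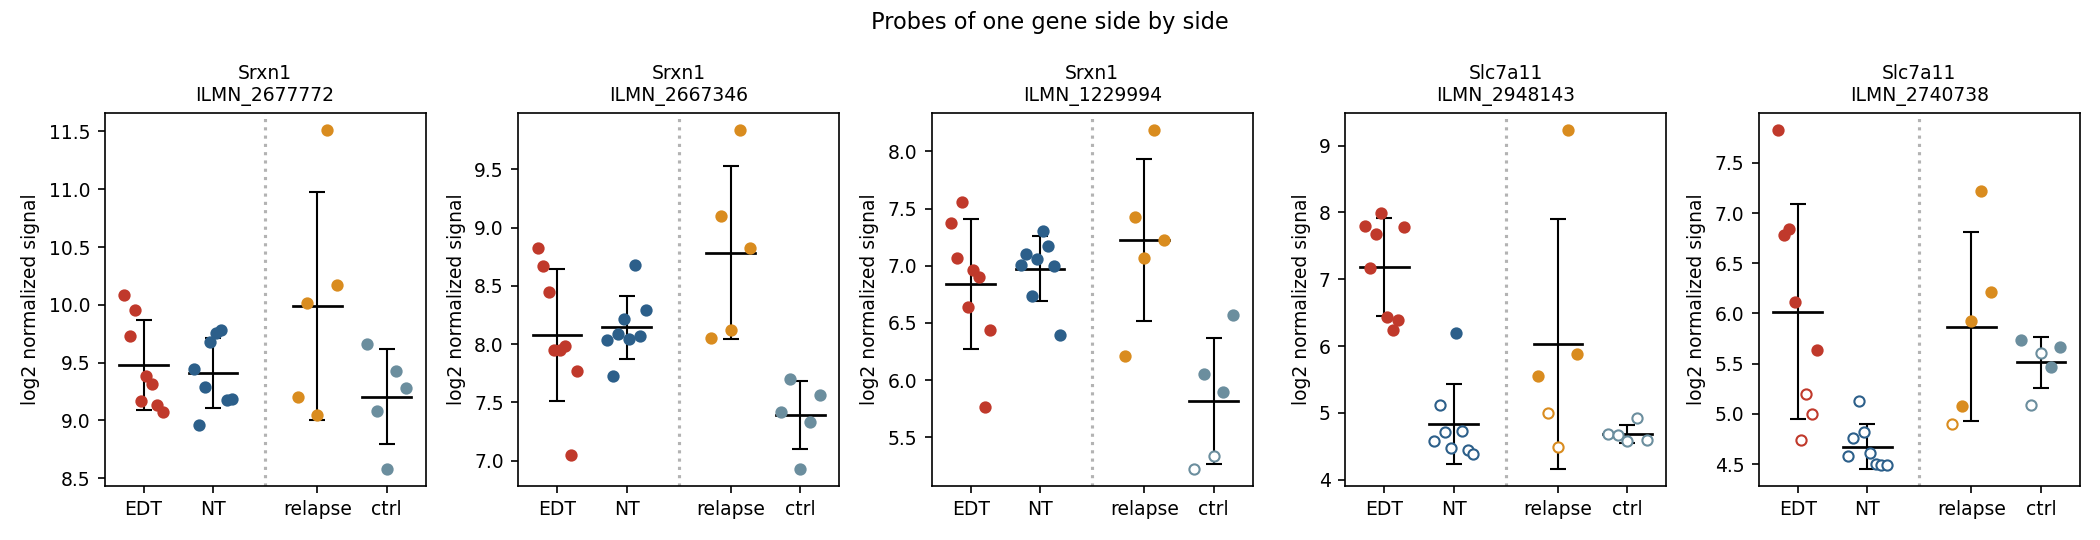
Normalized log2 signal (vertical axis) of the 3 passing probes of Srxn1 and the 2 passing probes of Slc7a11, 1 panel each, in EDT, NT, relapse and ctrl tumours (horizontal axis). Points are tumours, filled where the probe was detected, and bars are means with SD. Srxn1 in relapse stands clear of ctrl with ILMN_2667346 (8.05 to 9.84 in relapse, 6.93 to 7.70 in ctrl) and overlaps it with the brightest probe.

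Txnrd1, the cytosolic thioredoxin reductase, was called in neither comparison. Its probe (ILMN_2484465; gene at chr10:82833951-82897724) read 4.66 to 6.49 in EDT tumours (median 5.48), against 5.08 to 6.99 in NT tumours (median 5.92). The groups overlapped, with EDT 6 and 7 below every NT tumour, and 5 of 8 EDT and 6 of 8 NT arrays detected the probe. The difference was -0.44 ± 0.29 (SE; 95% interval -1.05 to 0.16; limma adjusted p = 0.258). It read 6.71, 6.23, 6.85, 6.60 and 6.44 in relapse, against 6.53, 6.59, 6.43, 6.18 and 6.83 in ctrl. These values interleave, and the difference was 0.05 ± 0.19 (SE; 95% interval -0.36 to 0.47; limma adjusted p = 0.860).

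Srxn1, sulfiredoxin, which repairs over-oxidised peroxiredoxins, did not differ by a call in EDT tumours, and at relapse its result depended on the probe. The brightest probe (ILMN_2677772; gene at chr2:152105524-152111376) read 9.08 to 10.08 in EDT tumours (median 9.35), against 8.96 to 9.78 in NT tumours (median 9.37). The groups overlapped, and EDT 1 and 3 of slide 2 alone lay above every NT tumour. The difference was 0.07 ± 0.17 (SE; 95% interval -0.29 to 0.43; limma adjusted p = 0.787). With the other passing probes it was -0.06 (ILMN_2667346, limma adjusted p = 0.850) and -0.13 (ILMN_1229994, limma adjusted p = 0.674), so no direction can be read.

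At relapse the brightest Srxn1 probe read 9.20, 10.01, 9.05, 11.51 and 10.18, against 9.66, 9.08, 8.58, 9.43 and 9.28 in ctrl tumours. Relapse 2, 4 and 5 lay above every ctrl tumour and relapse 1 and 3 within the ctrl range. The difference of 0.78 ± 0.42 (SE; 95% interval -0.13 to 1.69) was not called (limma adjusted p = 0.169), and it was 0.40 without relapse 4 (limma adjusted p = 0.359). Probe ILMN_2667346 read 8.05, 9.10, 8.12, 9.84 and 8.82 in relapse, against 7.42, 7.70, 6.93, 7.33 and 7.57 in ctrl, with no overlap. A separation in this direction was seen for 7.43% of all genes tested, a share counted over genes and not over probes. Probe ILMN_1229994 read 6.21, 7.43, 7.07, 8.19 and 7.23 in relapse, against 5.23, 6.05, 5.34, 5.90 and 6.57 in ctrl, where relapse 1 alone lay within the ctrl range.

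Both of these dimmer Srxn1 probes were called higher at relapse, in a comparison in which 31% of all passing probes were called and 14.6% were higher. The log2 differences were 1.39 ± 0.33 (SE; 2.63-fold; limma adjusted p = 0.00839) for ILMN_2667346 and 1.41 ± 0.36 (SE; limma adjusted p = 0.0126) for ILMN_1229994. Both were called in 10 of 10 leave-one-out fits, and without relapse 4 they were 1.13 and 1.17 (limma adjusted p = 0.0149 and 0.0291). Within slide 6 they were 1.07 and 1.37 and not called (adjusted p = 0.124 and 0.0800), and within slide 7 they were 1.88 and 1.47 (adjusted p = 0.0227 and 0.0543). The EDT change was smaller than the relapse change by 1.46 ± 0.38 and 1.54 ± 0.40 with these probes (SE; limma adjusted p = 0.0109 and 0.0111), where 17.6% of passing probes were called, 8.86% in this direction. With the brightest probe the difference of the changes was -0.71 and not called (limma adjusted p = 0.237). Which part of the transcript each probe reads was not analysed here.

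The Srxn1 promoter was searched for the antioxidant response element core TGACNNNGC, and the match is in capitals as it stands on the other strand. Whether this match is a working element was not tested, and elements with other letters were not searched. The window is chr2:152105274-152105573, plus strand, 5′ to 3′, from RefSeq in GRCm38.p6.
Srxn1: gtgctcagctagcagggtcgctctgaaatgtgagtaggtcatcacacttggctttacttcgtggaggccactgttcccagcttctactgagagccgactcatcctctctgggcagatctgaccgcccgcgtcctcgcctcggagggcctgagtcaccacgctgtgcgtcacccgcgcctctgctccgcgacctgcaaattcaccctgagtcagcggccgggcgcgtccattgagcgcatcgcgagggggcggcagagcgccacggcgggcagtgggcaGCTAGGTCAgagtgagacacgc
The core lay at bases 29 to 37 after the start, and 12.4% of promoters held such a core on either strand. Windows were given for 7 of the 9 members. Gclm and Txnrd1 also held an antioxidant response element core, at -134 to -126 in Gclm and at -92 to -84 of the second of 3 Txnrd1 starts, both on the other strand. The Nqo1 window held none of the 3 motifs.

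**Figure D4:**
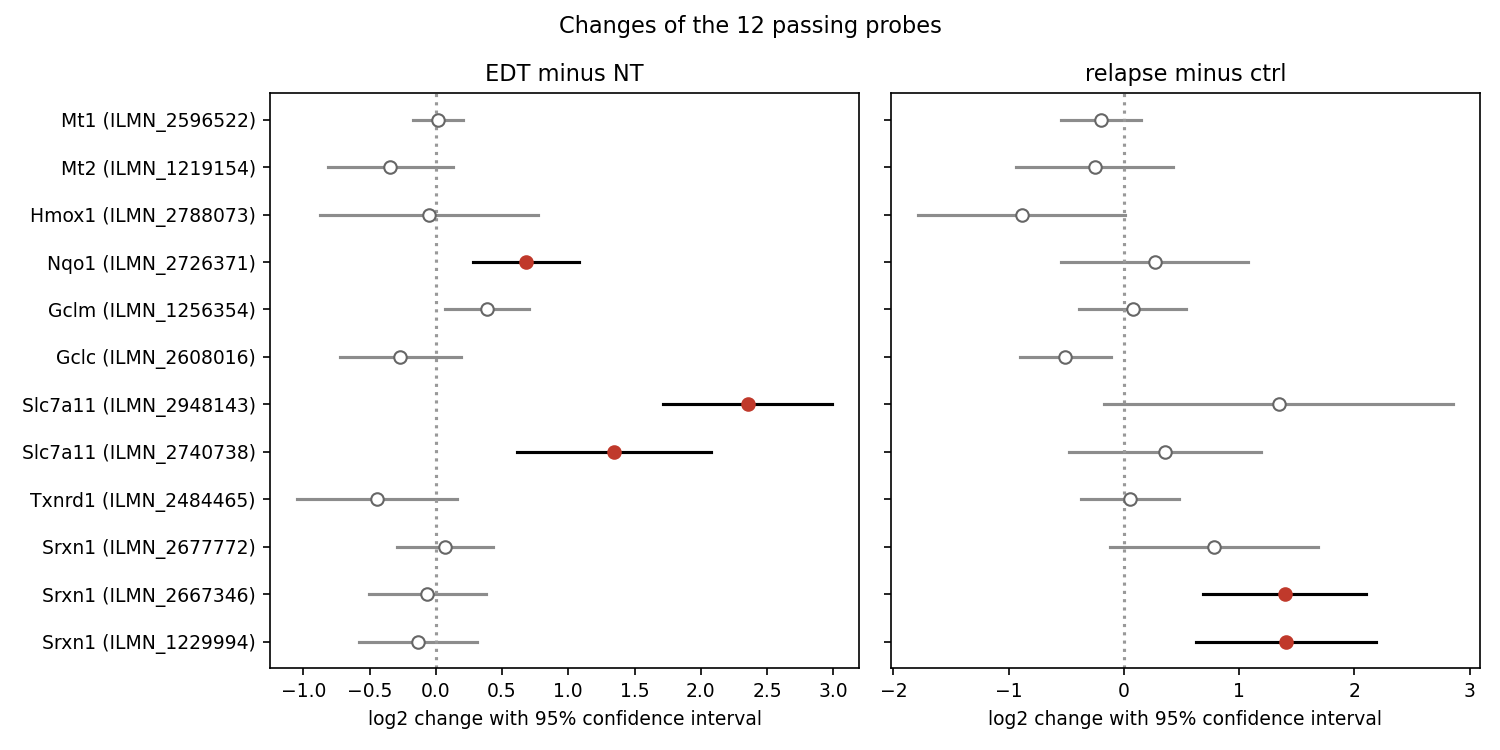
Log2 difference (horizontal axis) of the 12 passing probes of the 9 genes (vertical axis) for EDT minus NT and relapse minus ctrl, with 95% intervals from the limma fit over all passing probes. Red marks an adjusted p under 0.05. Both Slc7a11 probes and Nqo1 are red in EDT minus NT, and 2 of 3 Srxn1 probes in relapse minus ctrl, whereas Gclc, called in the fit over genes (adjusted p = 0.0484), has an adjusted p of 0.0524 here and is not red.

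Deviations from the group means were set against each other over the 26 tumours as a description, since all points share tables and slides. Among the members the highest r were 0.69 for Slc7a11 with Srxn1, 0.56 for Gclm with Srxn1, 0.45 for Gclm with Slc7a11, 0.45 for Hmox1 with Gclm and 0.44 for Nqo1 with Gclm. Relapse 4 lies far out for both Slc7a11 and Srxn1. Over all genes the patterns most like Slc7a11 were those of Cd300lf (r = 0.82), Rnf19b (0.82) and Clec4n (0.78). The patterns most like Hmox1 were Gm5150 (0.76), H4c3 (0.76) and Clic1 (0.71), those most like Mt2 were Cct5 (0.82), Prps2 (0.80) and Slc4a1 (0.79), and those most like Mt1 were Gm5069 (0.71), Edn1 (0.66) and 4930599N23Rik (0.64).

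Within EDT and within NT, 8 relations between members or with the macrophage sum were tested, each over 8 tumours by exact permutation. Slc7a11 with Gclm in EDT had r = 0.36 (exact permutation p = 0.361; rho = 0.24, p = 0.582), and r = 0.11 without the 2 tumours farthest from the Slc7a11 median. Hmox1 with Nqo1 had r = 0.23 in EDT (exact permutation p = 0.586; rho = 0.17, p = 0.703; 0.56 without 2 tumours) and 0.38 in NT (exact permutation p = 0.352; rho = 0.40, p = 0.327; -0.25 without 2 tumours). Mt1 with Mt2 had r = 0.21 in EDT (exact permutation p = 0.614; rho = 0.07, p = 0.882; 0.49 without 2) and -0.45 in NT (exact permutation p = 0.277; rho = -0.24, p = 0.582; 0.04 without 2). Hmox1 with the macrophage sum had r = 0.29 in EDT (exact permutation p = 0.482; rho = 0.00, p = 1.0; -0.56 without 2 tumours) and -0.40 in NT (exact permutation p = 0.326; rho = -0.40, p = 0.327; -0.40 without 2). Slc7a11 with Gclm had r = 0.19 in NT (exact permutation p = 0.544; rho = 0.24, p = 0.582; -0.42 without 2). All 8 adjusted p-values from the exact permutations of r were 0.614, and those of rho were 0.931 or more, so no relation passed. In NT, 1 of 8 arrays detected Slc7a11 and 2 of 8 detected Nqo1, so r there runs over values close to background. The values of Mt1 are drawn together by quantile normalization. With 8 tumours each, these tests cannot show that a relation is absent. Slides hold too few tumours of a group for a value of r within them.

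Regulators of the responses were measured by 7 of 8 listed genes. Of these, 2 were called higher in EDT tumours (Nfe2l2 and Bach1) and 0 lower, where 29.6% of all genes were called, and 1 was called higher at relapse (Nfe2l2). Nfe2l2, the gene of NRF2, read 7.10, 7.52, 7.30, 7.53 and 7.28 in relapse tumours, against 6.01, 6.81, 6.37, 6.44 and 6.21 in ctrl tumours. The groups did not overlap, a separation seen for 7.43% of genes in this direction. The difference was 0.98 ± 0.19 (SE; limma adjusted p = 0.00384), called in 10 of 10 leave-one-out fits and 0.91 within slide 6 (limma adjusted p = 0.109). In EDT tumours Nfe2l2 read 7.55 to 8.64 (median 8.24), against 7.12 to 8.24 in NT (median 7.78). The ranges overlapped, and the difference of 0.48 ± 0.16 (SE; limma adjusted p = 0.0360) was called in 7 of 16 leave-one-out fits and not with the slide as a block (0.43, adjusted p = 0.273). Bach1, the repressor of Hmox1, was higher in EDT by 0.79 ± 0.26 (SE; limma adjusted p = 0.0263), called in 12 of 16 leave-one-out fits. Keap1, which marks NRF2 for degradation, differed by 0.12 in EDT (limma adjusted p = 0.446) and by 0.20 at relapse (limma adjusted p = 0.469), though 2 of its 3 other probes were called higher at relapse (0.81 and 0.66).

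Other NRF2 targets were called in both directions. Of 24 listed genes 19 were tested, with a median change in EDT tumours of -0.24, against -0.05 for all genes. In EDT 1 was called higher (Blvrb, a biliverdin reductase, by 0.87) and 7 lower, where 14.5% of all genes were called higher and 15.1% lower. That split depends on scaling: with median centring it was 3 higher and 3 lower, with the authors' values 2 and 5, and within slide 5 it was 0 and 0. The lower ones included Slc3a2 (above), Ephx1, an epoxide hydrolase (-1.25 ± 0.26, adjusted p = 0.00166), and Gstm1, a glutathione transferase (-1.04 ± 0.21, adjusted p = 0.00141). A second Gstm1 probe gave -0.63 and was not called (limma adjusted p = 0.0577). At relapse 1 of 19 was called higher, the carbonyl reductase Cbr3 (1.5 ± 0.42, adjusted p = 0.0193; 1.18 and not called with another probe), and 2 lower, Ephx1 (-1.66 ± 0.41, adjusted p = 0.0106) and Gsta3 (-1.05 ± 0.26, adjusted p = 0.0101).

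Zinc and copper handling genes, 11 tested of 14, gave 1 called higher and 2 lower in EDT tumours, against 3 and 0 with median centring, so the list's direction is not settled. The named calls in EDT were the copper importer Slc31a1 (-0.62, limma adjusted p = 0.00691), the zinc transporter Slc39a7 (-0.37, limma adjusted p = 0.00895; -0.63 and -0.22 with its other probes, the second not called) and the zinc transporter Slc30a5 (0.26, limma adjusted p = 0.0470), a call kept in 3 of 16 leave-one-out fits. Slc30a1, the zinc exporter that MTF1 induces together with the metallothioneins, differed by 0.02 in EDT (limma adjusted p = 0.936) and by -0.60 at relapse (limma adjusted p = 0.137). At relapse 1 was called higher, Slc39a6 (0.72, limma adjusted p = 0.0298; 4 of 10 leave-one-out fits), and 1 lower, the copper pump Atp7a (-0.78, limma adjusted p = 0.0480), a call kept in 2 of 10 leave-one-out fits.

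Antioxidant enzymes, 18 tested of 21, gave 2 higher and 3 lower calls in EDT tumours (6 and 0 with median centring) and 3 higher and 4 lower calls at relapse (4 and 1 with median centring, 3 and 2 with the authors' values). With the slide as a fixed block it was 0 and 0 in EDT. Glrx, a glutaredoxin, was higher in both: it averaged 11.52 ± 0.69 in EDT and 10.21 ± 0.51 in NT (SD, n = 8 each), and 11.49 ± 0.45 in relapse and 10.30 ± 0.13 in ctrl (SD, n = 5 each). The differences were 1.31 (limma adjusted p = 0.00200; 1.0 and not called with the slide as a block) and 1.19 (limma adjusted p = 0.00322). Txnrd2, the mitochondrial thioredoxin reductase, was lower in both. Its difference was -0.94 in EDT (limma adjusted p = 0.0247; -0.20 and not called with another probe) and -3.02 at relapse (limma adjusted p = 0.000825; -1.23 with that probe). Txnrd3 was also lower in EDT (-0.80, limma adjusted p = 0.00853), and Gpx8, a peroxidase of the endoplasmic reticulum, was higher at relapse by 1.26 (limma adjusted p = 0.00369). Sod2, the mitochondrial superoxide dismutase, differed by 0.03 in EDT (limma adjusted p = 0.877) and by -0.54 at relapse (limma adjusted p = 0.0855).

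Genes of the phagocyte oxidase, which makes superoxide in macrophages and neutrophils, together with Nos2 were tested for 5 of 7. All 5 were called higher in EDT tumours, where 14.5% of all genes were. It was also 5 with median centring or the authors' values and 3 within slide 5. Of the 5 genes, 3 were detected on every NT array. Ncf1 and Nos2 averaged 4.92 and 4.78 in NT, close to background. A gene that passed the filter through EDT alone was bound to differ, so the count is a description. The median change was 1.85. Ncf4, a cytosolic oxidase subunit, averaged 9.16 ± 0.59 in EDT and 7.10 ± 0.51 in NT (SD, n = 8 each). Rac2 was higher by 2.46 ± 0.38 (SE; limma adjusted p = 0.000115), Ncf4 by 2.06 ± 0.26 (limma adjusted p = 1.3e-05) and Ncf1 by 1.85 ± 0.25 (limma adjusted p = 2.9e-05). At relapse 3 of 5 were called higher, where 13.3% of all genes were, and 2 of the 5 were detected on no ctrl array. Rac2 was higher by at least 3.84-fold, Ncf4 by 2.07 ± 0.32 (limma adjusted p = 0.00112) and Ncf1 by 1.77 ± 0.37 (limma adjusted p = 0.00539). The ctrl mean of Ncf1, 4.69, lay close to background. The phagocyte oxidase acts in macrophages and neutrophils, whose markers are given above. Which cells gave the signal of these genes, and the part of cell numbers in their change, was not tested.

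Haem and iron genes, 10 tested of 11, gave 1 higher and 3 lower calls in EDT tumours (2 and 0 with median centring). Slc11a1, an iron and manganese transporter of the macrophage phagosome, averaged 12.48 ± 0.31 in EDT and 11.15 ± 0.63 in NT (SD, n = 8 each), a difference of 1.33 ± 0.23 with no overlap (SE; limma adjusted p = 0.000368). Groups stood apart in this direction for 4.58% of all genes tested. At relapse the result of Slc11a1 depended on the probe. The brightest gave 0.72 and ILMN_2983516 gave 1.01, neither called. ILMN_2674884 and ILMN_2692797 were called higher, by 2.21 and 1.77 (limma adjusted p = 0.000175 and 0.000222). The haem transporter Slc48a1 was lower in EDT (-0.86 ± 0.14, limma adjusted p = 0.000166) and at relapse (-0.95 ± 0.29, limma adjusted p = 0.0297; 3 of 10 leave-one-out fits). Fech, which inserts iron to make haem, was lower in EDT (-0.77, limma adjusted p = 0.00434). At relapse the iron exporter Slc40a1 was lower (-1.70 ± 0.39, limma adjusted p = 0.00795) and Hmox2, the constitutive haem oxygenase, was higher (0.81 ± 0.22, limma adjusted p = 0.0177). Of 12 tested ATF4 targets, 4 were called higher and 1 lower in EDT tumours (5 and 0 with median centring or the authors' values, 0 and 0 with the slide as a fixed block or within slide 5), with Atf3 (1.37, limma adjusted p = 0.00996), Nupr1 (1.14, limma adjusted p = 0.0128) and Shmt2 (-0.73, limma adjusted p = 0.0129; -0.61 and not called with another probe) the largest changes. At relapse 3 were called higher, Phgdh (3.16), Asns (2.09) and Psat1 (0.72, called in 8 of 10 leave-one-out fits), against 5 with median centring. The brightest Shmt2 probe gave -0.09 at relapse and was not called, whereas its other probe was higher by 1.32 (limma adjusted p = 0.00225). Genes called outside the rule for naming, chosen after their values were seen, were Txn2 in both comparisons (-0.64 in each), Msrb1 in both (0.43 in EDT and -0.84 at relapse), Slc40a1 in EDT (-0.47), Glrx5 (0.63) and Gpx4 (-0.58) at relapse, Cyba (0.41) and Nos2 (1.46) in EDT, and Trib3 (0.45) and Mthfd2 (0.60) in EDT. Of these, the calls of Txn2 and Msrb1 at relapse held in 2 of 10 leave-one-out fits each, Gpx4 in 3 and Glrx5 in 8, and in EDT those of Msrb1 and Cyba held in 4 and 7 of 16.

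**Figure D5:**
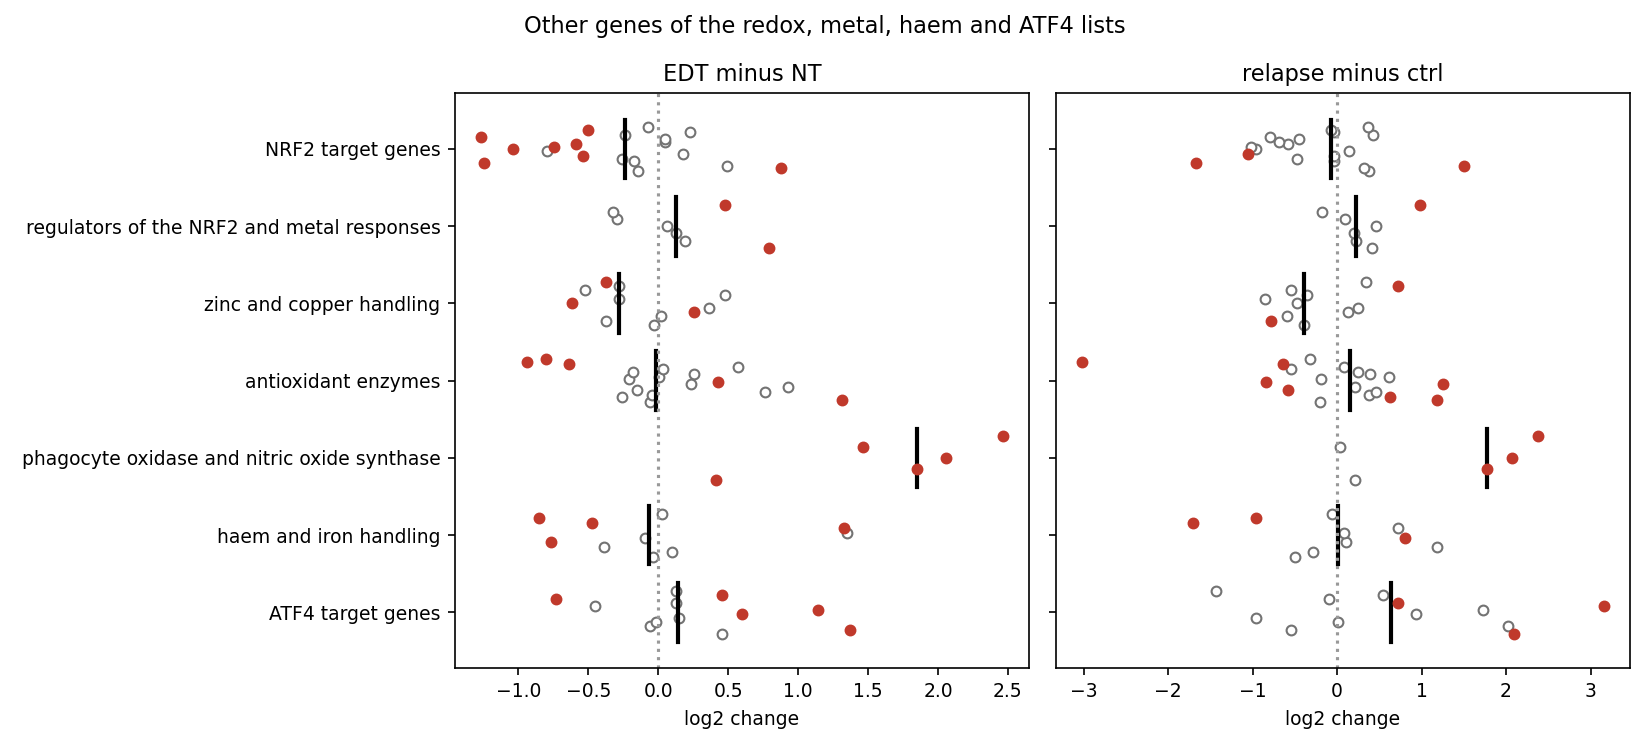
Log2 difference (horizontal axis) of each tested gene in the 7 gene lists (vertical axis), for EDT minus NT and relapse minus ctrl. Each point is 1 gene, red where the limma adjusted p was under 0.05, and the black line is the list's median. The phagocyte oxidase genes with Nos2 have the highest medians, 1.85 in EDT minus NT and 1.77 in relapse minus ctrl.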

How the data were processed

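RNA of 26 tumours was measured, 8 EDT, 8 NT, 5 relapse and 5 ctrl, with groups and replicate numbers taken from the labels. The deposited tables give the mean bead intensity per probe, neither background-corrected nor normalized, with a detection p-value beside it, per the file headers. The second table as deposited also holds a bead standard error and a count of beads (15 to 64 for a probe of the members, with bead errors of 1.99 to 9.83% of the signal). The number of arrays limits the precision. What the authors processed is log2 signal, as the match of these values to each array's own signals shows, with array medians of 4.66 to 4.86. Their method is not given in the sources used here, and they served as an alternative.

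Of 45264 and 45281 probes, 4 with mistyped values and 17 found in the second table alone were left out, which left 45260. Symbols came from the platform annotation: 34871 probes had 1 symbol, 18 several and 10371 none. Background correction with inferred negative controls, an offset of 16 and quantile normalization were done per table (neqc, limma 3.58.1 in R 4.3.3). Probes were kept if 5 or more arrays of 1 group detected them at p under 0.01 (16624, of which 14472 with 1 symbol). A gene was represented by its brightest passing probe (9553 genes), and all passing probes were also fitted. Groups were compared within a table with limma's lmFit and eBayes, two-sided, with Benjamini-Hochberg adjustment over all genes and a threshold of 0.05; the difference of effects was fitted over all 26 arrays. Where no array of a group detected a probe, its level there was set to the lowest detected signal of each array and the fold given as a lower bound. Marker sums add the linear normalized signals of a list's tested genes.

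Relations within a group used exact permutation. The statistics were tested on simulated data. The members and the gene lists were chosen with earlier results of these data known. Named beside the members were up to 3 called genes per list and comparison with the largest change, 6 fixed regulators and transporters, and for 4 members the 3 genes with the most similar pattern. Deviations of same-numbered tumours correlated over 0.1 in 1 of 8 EDT and NT pairs and in 3 of 5 relapse and ctrl pairs (0.111, 0.285 and 0.344), not in every pair, and no label says that a number marks a shared source, so numbers were not used as pairs. Alternatives were other scalings, filters and probe rules, slide and replicate blocks, single slides and leaving out each sample. Promoter windows came from RefSeq (GRCm38.p6), and the array files give no coordinates.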

Additional observations from a re-analysis of the deposited data

Results flagged for a closer look

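Single tumours stood apart from their group by Dixon's criterion in 4 of 72 groups of values checked (5.56%), and chance alone gives about 1 in 20. Gclm in NT 6 was low at 8.89, Gclc in EDT 3 high at 5.70, Hmox1 in ctrl 5 low at 8.12 and Slc7a11 in NT 5 high at 6.20, all as log2 signals.

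The EDT effect and the relapse effect differed, by limma over all 26 arrays, for 2 of 3 Srxn1 probes. That difference, EDT over NT less relapse over ctrl, was -1.46 with ILMN_2667346 and -1.54 with ILMN_1229994, and the brightest probe of Srxn1 did not share the call. Among the pathway genes named, the same difference of effects was called for Txnrd2 (2.08), Msrb1 (1.27, where the probes of Msrb1 disagree at relapse, -0.84 and 0.18), Gpx8 (-1.02), Gsta3 (1.23), Sqstm1 (-0.67) and Prdx1 (0.50, and 0.04 with its other probe, not called). Of 26 leave-one-out fits, 13 kept the call of Prdx1, 12 that of Sqstm1 and 9 that of Gsta3. Among iron, haem and zinc genes it was called for Slc40a1 (1.23), Hmox2 (-0.90), Fech (-0.88), Slc39a6 (-1.0) and Slc39a7 (-0.715), and among the others for Nos2 (1.43), Phgdh (-3.61), Asns (-1.64) and Atf3 (1.91), with Fech called in 17 of 26 leave-one-out fits, Atf3 in 22, Nos2 in 23 and Asns in 24.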

How the results depend on the processing

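Slc7a11, whose probe entered through EDT alone, stayed higher in EDT than in NT under all 14 alternatives (1.08 to 2.59, adjusted p at most 0.0188), and the other members' calls did not all hold. In EDT minus NT, genes called numbered 1045 with the slide as a fixed block (612 higher, 433 lower), 480 within slide 5 and 1859 without the EDT samples of slide 2, against 2831, and members called numbered 1 under each of these, Nqo1 being lost. Median centring moved the median change of all genes to 0.29 in EDT minus NT and to 0.30 in relapse minus ctrl, and split the calls into 2275 higher and 174 lower and into 2086 and 656, against 1385 and 1446 and 1270 and 1674. The authors' values split them into 1747 and 756 and into 1536 and 1314. Directions of uncalled members turned in EDT minus NT: Mt1 with the authors' values (-0.0049), Mt2 with median centring (0.0541), the slide block and slide 5 (0.1437), Hmox1 without background correction (0.0091), with median centring (0.2982), the authors' values (0.0722) and without the EDT samples of slide 3 (0.5264), and Srxn1 with the mean over probes (-0.0420), the slide as a fixed block and slide 5 (-0.2737), the slide as a random block (-0.0015), without the EDT samples of slide 2 (-0.1943) and with its other probes (-0.1343 and -0.0627). In relapse minus ctrl, 568 genes were called within slide 6, against 2944. Members called there numbered 0 without background correction, with median centring, the authors' values, an offset of 50, the replicate block, the slide block, or within slide 6 or 7, where Gclc was lost, and 2 with the mean over probes, which added Srxn1 (1.20). Directions turned for Mt2 with median centring (0.2729) and the authors' values (0.0083), Hmox1 within slide 7 (0.0696), and Nqo1 (-0.0078) and Gclm (-0.0657) within slide 6. For the difference of effects, 647 genes were called with median centring and 844 with the slide block, against 1582, and 1 member with the authors' values (Mt1) and 1 with the mean over probes (Srxn1). Directions turned with the slide block for Mt2 (0.3974), Hmox1 (-0.0185) and Nqo1 (-0.0405), and for Gclc with median centring (-0.0797). Leaving out 1 tumour gave -0.0168 to 0.0342 for Mt1, -0.3113 to 0.1941 for Hmox1 and -0.0152 to 0.1289 for Srxn1 in EDT minus NT. In relapse minus ctrl it gave -0.0257 to 0.1480 for Gclm, -0.0313 to 0.1359 for Txnrd1 and 0 to 1 members called. For the difference it gave -0.2470 to 0.1441 for Mt2, 0 to 1 members called (Slc7a11 without relapse 4) and 1035 (without relapse 5) to 2497 (without relapse 3) genes called. Leaving out 1 tumour gave r of -0.1856 to 0.5084 for Hmox1 with the macrophage sum in EDT, -0.1269 to 0.4111 for Mt1 with Mt2 in EDT and -0.0635 to 0.3026 for Slc7a11 with Gclm in NT. The causes were not tested. Probes near background (Nqo1, Slc7a11, Gclc) limit small differences.

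Relapse tumours 1, 2 and 3 each correlated best with the ctrl tumour of their own number, relapse 4 and 5 did not, and of the EDT tumours 1 did, so whether numbers mark pairs is not settled at relapse. With the replicate number as a block, 2514 genes were called in EDT minus NT, 3117 in relapse minus ctrl and 1564 for the difference. Gclm was then called in EDT minus NT (0.38, adjusted p = 0.0486) and Gclc was lost at relapse (adjusted p = 0.0902).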
